A study of Mus musculus with 8 samples.

Results

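The transcripts described here belong to the interferon response and to antigen presentation by MHC class I molecules. A list of 49 mouse genes was followed, and 45 of them were measured by at least 1 probe set whose only annotated symbol was that gene, out of 12393 genes measured that way in all. For Isg15 and H2-T23 the probe sets named several genes, and Ifi44 and Ddx58 were not analysed here. Each gene was read from its brightest probe set, and whether the array software called it present is given beside the results. The 45 genes were covered by 80 probe sets in all.

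Expression was measured on 8 arrays of cultured mouse adipocytes from a line of Swiss background, which the labels call F442A in one field and 3T3L1 in another. Adenovirus was added between day 6 and day 8 of differentiation, and RNA was taken 4 to 6 days after that. In 4 samples the virus carried mouse spliced XBP1 (sXBP1), the active form of a transcription factor of the unfolded protein response, and in the 4 controls it carried green fluorescent protein (GFP). Both groups had therefore received virus, and no uninfected cells were analysed here, so a response shared by both viruses does not appear in the comparison. Nothing in the labels ties the replicates to separate cultures; the p-values therefore reflect variation among these samples, part of which may be technical.

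Interferons are secreted proteins, and those of type I are released by cells that sense viral nucleic acid. Type I interferons bind the receptor pair IFNAR1 and IFNAR2, and interferon gamma binds IFNGR1 and IFNGR2; both pairs signal through Janus kinases to STAT proteins, which enter the nucleus. A complex of STAT proteins with IRF9 binds the interferon-stimulated response element (ISRE) in the promoters of antiviral genes, while STAT dimers bind gamma-activated sites (GAS). The genes switched on include inhibitors of viral translation and assembly, GTPases that attack intracellular pathogens, and the machinery that loads peptides on MHC class I molecules in the endoplasmic reticulum.

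Promoters of 5 members are shown because they carry the contrast described below: Oas1a rose, Gbp2, Ifit3 and Ubd fell, and Bst2 did not pass the test. Each runs from 250 bases before to 50 bases after the RefSeq start site on GRCm38.p6, 5′ to 3′ on the gene's strand, and capitals mark matches on either strand to the ISRE core, which is GAAA, any 2 bases and GAAA again.
Oas1a promoter (chr5:120907476-120907775, minus strand): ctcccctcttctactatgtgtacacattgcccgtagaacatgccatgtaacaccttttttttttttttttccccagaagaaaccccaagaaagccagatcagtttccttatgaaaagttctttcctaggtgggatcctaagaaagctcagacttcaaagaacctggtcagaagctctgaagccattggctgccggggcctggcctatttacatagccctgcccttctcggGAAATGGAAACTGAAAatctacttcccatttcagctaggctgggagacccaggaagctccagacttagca
Gbp2 promoter (chr3:142620413-142620712, plus strand): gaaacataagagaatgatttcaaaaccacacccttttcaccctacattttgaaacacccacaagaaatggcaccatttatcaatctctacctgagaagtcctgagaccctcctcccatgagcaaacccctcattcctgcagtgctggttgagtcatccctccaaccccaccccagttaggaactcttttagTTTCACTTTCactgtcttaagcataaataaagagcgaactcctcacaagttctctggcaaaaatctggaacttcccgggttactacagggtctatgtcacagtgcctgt
Ifit3 promoter (chr19:34583279-34583578, plus strand): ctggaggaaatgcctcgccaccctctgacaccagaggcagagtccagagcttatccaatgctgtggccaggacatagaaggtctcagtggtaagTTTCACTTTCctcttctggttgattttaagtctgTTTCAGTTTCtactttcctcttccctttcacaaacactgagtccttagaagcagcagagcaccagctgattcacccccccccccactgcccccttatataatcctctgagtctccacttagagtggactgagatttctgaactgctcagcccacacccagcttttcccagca
Bst2 promoter (chr8:71537423-71537722, minus strand): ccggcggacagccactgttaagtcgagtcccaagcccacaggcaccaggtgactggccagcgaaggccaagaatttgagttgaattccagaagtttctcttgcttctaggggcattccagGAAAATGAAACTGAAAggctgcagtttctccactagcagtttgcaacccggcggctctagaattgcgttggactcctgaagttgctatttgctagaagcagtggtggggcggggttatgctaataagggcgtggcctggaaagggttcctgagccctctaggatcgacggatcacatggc
Ubd promoter (chr17:37193642-37193941, plus strand): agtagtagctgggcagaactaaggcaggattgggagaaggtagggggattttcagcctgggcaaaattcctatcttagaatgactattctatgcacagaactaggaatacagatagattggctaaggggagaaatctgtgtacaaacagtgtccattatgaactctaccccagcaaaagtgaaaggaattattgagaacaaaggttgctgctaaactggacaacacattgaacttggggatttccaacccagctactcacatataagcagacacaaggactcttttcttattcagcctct
Oas1a, Ifit3 and Bst2 each held 2 matches, Gbp2 held 1 and Ubd held 0.

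The ISRE core was found among members that rose, that fell and that did not pass. Of the 45 measured members 39 had a RefSeq promoter in the table, and 17 of these held at least 1 match (43.6%), against 3.44% of the 32851 promoters of that length. A match stood in 1 of the 4 members that rose, in 2 of the 7 that fell and in 14 of the 28 that did not pass. The GAS core TTCNNNGAA, which reads the same on both strands, stood in 12 of the 39 (30.8%), against 8.30% of all promoters. It was found for all 4 members that rose (Ifnar1, Ifnar2, Oas1a and Samhd1), for Irf1 among the 7 that fell and for 7 of the 28 that did not pass. In Bst2 a GAS match overlapped an ISRE match. ACGTG, the core of sites bound by XBP1, was searched on both strands and stood in 4 of 39 (10.3%), against 19.6% of all promoters. All 4 (Erap1, Igtp, Oasl2 and Trim25) were members that did not pass. These matches describe the letters of the window only.

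Median signal lay between 135 and 154 on GFP arrays and between 117 and 140 on sXBP1 arrays, with p = 0.0857 in an exact two-sided permutation test. For Gapdh, the signal of the 3' probe set over that of the 5' one, which reflects RNA degradation, ranged from 0.810 to 0.820 in GFP and from 0.775 to 0.802 in sXBP1 samples. The exact two-sided permutation p of 0.0286 is the lowest possible with 4 against 4. For actin the same ratio was 1.40 to 1.44 in GFP and 1.33 to 1.44 in sXBP1 samples (p = 0.143, same permutation test). Listed probe sets called present made up 75.2% to 76.9% on GFP and 75.0% to 76.5% on sXBP1 arrays (p = 0.857, same permutation test). Xbp1 itself changed by 0.07 ± 0.04 on the log2 scale on its brightest probe set (limma adjusted p = 0.271; 0.0307 after median centring). Where its probes lie relative to the insert carried by the virus was not analysed here, and the value does not check the labels.

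Adipocyte markers were abundant in every sample, and of 7 measured 5 fell (71.4%). Among all genes 14.4% fell and 12.9% rose. The summed signal of the 7 was 58420 to 63870 on GFP and 48610 to 57550 on sXBP1 arrays. Fabp4 and Lpl did not pass, changing by -0.02 and -0.04 (limma adjusted p = 0.765 and 0.67), so the fall was not shared by all 7. For the 5 that fell, fewer adipocytes and less RNA per adipocyte, in general or of these genes alone, cannot be told apart. Neither was tested. Of 9 macrophage and leukocyte markers 4 (44.4%) rose (Csf1r, Cd68, Lyz2 and Cd14) and 0 fell. The summed signal of the 9 was 769.4 to 898.0 on GFP and 2122 to 4231 on sXBP1 arrays. Of the 9, 6 were called present on at least 1 array, among them Adgre1 on all 8 and Tyrobp on 1, while Ptprc, the common leukocyte antigen, Itgam and Fcer1g were called present on no array, and 0 of 5 lymphocyte and natural killer markers were detected. Of 3 plasmacytoid dendritic markers 2 fell, summing to 1046 to 1248 on GFP arrays against 678.3 to 881.2 with sXBP1; the falls were Tcf4 and Irf8, and Irf8 was called present on no array. Of 4 endothelial markers 0 passed (36.4 to 76.4 and 45.5 to 64.9).

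Interferon and antigen presentation genes did not move as a block. Of the 45 measured, 4 rose, 8 fell and 33 did not pass (limma adjusted p under 0.05 over all 22626 probe sets tested). The 12 that passed are 26.7% of the members, against a background of 27.3% of all 12393 genes and 24.5% of all probe sets. Rises were 12.9% and falls 14.4% of all genes. The median log2 change was 0.01 over the members and -0.01 over all genes, with a range of -1.67 to 1.60 among members. Groups did not overlap, after normalization, for 12 members, against 30.2% of all genes. Only Oas1a and Ubd passed with a log2 change of 1 or more in size, which 2.07% of all genes did.

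The count depended on the scaling and on single arrays. With median centring 8 members rose and 5 fell, and with values as deposited 2 rose and 7 fell. Gbp2, Ifit3, Iigp1 and Ubd passed under all 17 alternatives and Oas1a under the 16 that tested it. The remaining 7 each lost the call under at least 1 alternative.

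**Figure D1:**
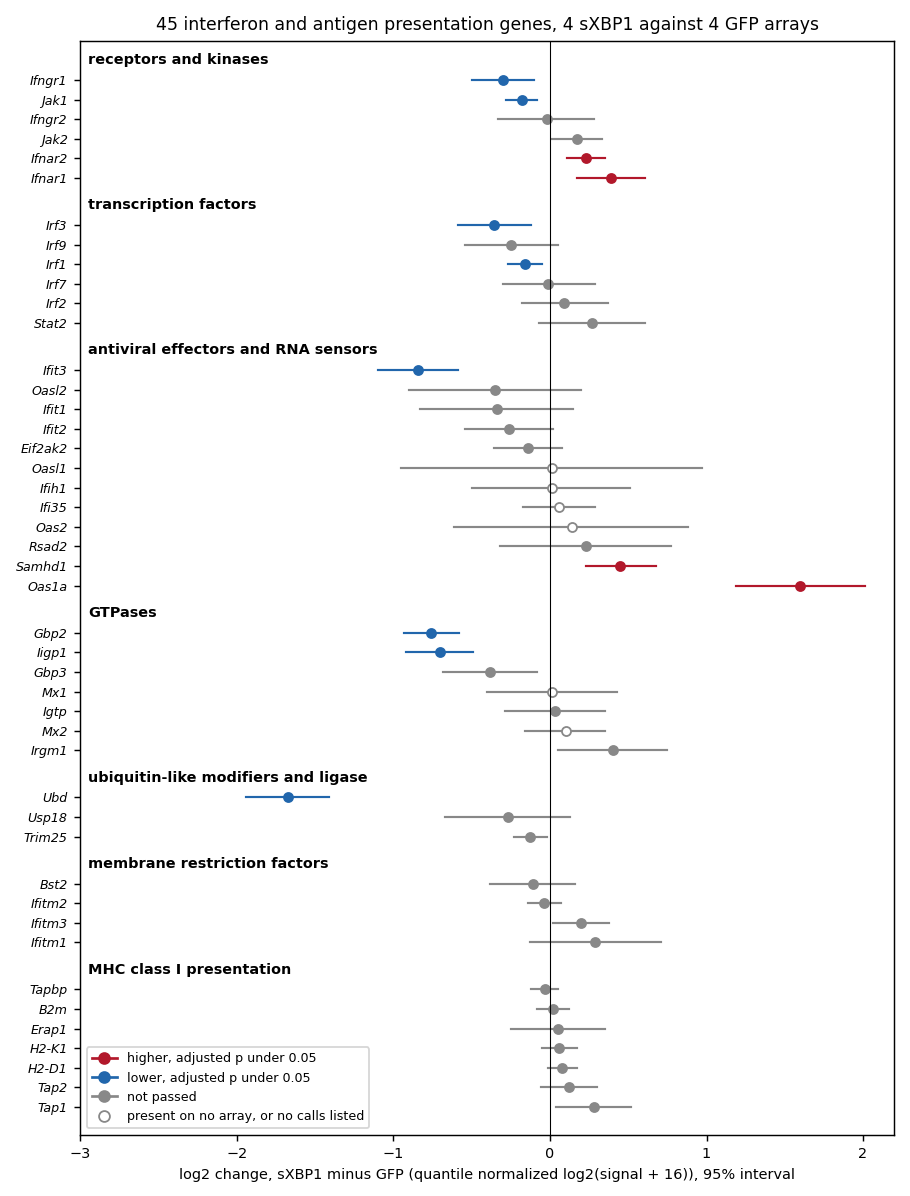
Log2 change (sXBP1 minus GFP, horizontal axis, quantile normalized log2(signal + 16)) of each of the 45 genes with its 95% confidence interval, grouped by role; red rose, blue fell, grey did not pass, and open circles were present on no array or had no calls. Ubd at -1.67 and Oas1a at 1.60 stand farthest from 0, and all genes of MHC class I presentation lie between -0.03 and 0.28.

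Of 6 receptor and kinase genes, 2 rose and 2 fell. Both chains of the type I receptor rose, whereas the ligand-binding chain of the interferon gamma receptor, Ifngr1, and the kinase Jak1, which serves both receptors, fell. Ifnar1 had signals of 510.3, 499.4, 518.0 and 550.4 on GFP arrays 1 to 4 and of 536.6, 595.0, 718.7 and 752.7 on sXBP1 arrays 1 to 4. The lowest sXBP1 signal lay below the highest GFP signal as deposited, while after normalization the groups did not overlap. The change was 0.39 ± 0.10 (limma adjusted p = 0.0145). It did not pass with values as deposited (0.30, adjusted p = 0.0682) or without sXBP1 arrays 3 and 4 (0.23, adjusted p = 0.0983). Ifnar2 was measured at 1114.0, 1310.1, 1176.8 and 1214.0 in GFP and at 1255.6, 1279.7, 1333.6 and 1636.7 in sXBP1 samples. Again the deposited signals overlapped and the normalized ones did not. Ifnar2 rose by 0.23 ± 0.05 (limma adjusted p = 0.00893), on 1 of 2 probe sets and not with values as deposited (0.19, adjusted p = 0.189).

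Ifngr1 gave 539.2, 712.5, 669.3 and 641.2 on the GFP arrays and 494.7, 552.7, 416.9 and 469.2 on the sXBP1 arrays, so that GFP array 1 fell within the sXBP1 range. Ifngr1 fell by 0.30 ± 0.09 on the log2 scale (limma adjusted p = 0.0318). The call was lost with median centring (adjusted p = 0.0589), without an intensity trend (0.0655), without sXBP1 arrays 3 and 4 (0.227), and without GFP replicate 2, 3 or 4 or sXBP1 replicate 3 or 4 (adjusted p = 0.0857, 0.0936, 0.0592, 0.0818 and 0.0830). For Jak1 the signals were 3609.5, 3913.4, 3663.5 and 4058.4 in GFP and 3216.9, 3363.4, 2943.0 and 3606.7 in sXBP1 samples, which just do not overlap. Jak1 fell by 0.18 ± 0.04 (limma adjusted p = 0.0142) on 2 of 3 probe sets. It did not pass as deposited (adjusted p = 0.0558), with median centring (0.318), without a trend (0.0749), without GFP replicate 4 (0.0521) or without sXBP1 arrays 3 and 4 (0.0611). Ifngr2, the second chain of the interferon gamma receptor, and Jak2, its associated kinase, changed by -0.02 ± 0.14 and 0.17 ± 0.07 (limma adjusted p = 0.929 and 0.111). The dimmer probe set of Jak2 passed at 0.32, and Jak2 passed with the mean of its probe sets (0.25, adjusted p = 0.0102) and with median centring (0.24, adjusted p = 0.0478).

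Among the transcription factors 2 of 6 fell, each by a small amount. Irf1, induced by interferon gamma and an activator of MHC class I genes, had signals of 620.1, 722.5, 623.2 and 683.4 in GFP and of 528.5, 580.1, 526.3 and 589.2 in sXBP1 samples. All 4 sXBP1 values lay below all 4 GFP values. Irf1 fell by 0.16 ± 0.05 on the log2 scale (limma adjusted p = 0.0452), and it passed under only 5 of 17 alternatives. The call was lost without any 1 of GFP replicates 1 to 4 (adjusted p = 0.0889, 0.110, 0.0773 and 0.101) or of sXBP1 replicates 1, 3 and 4 (0.0951, 0.0678 and 0.0947), and under both other scalings (0.0549 as deposited, 0.233 with median centring). It was also lost without a trend (0.0880), without sXBP1 arrays 3 and 4 (0.135) and with the replicate number as a block (0.0937).

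Irf3, which is activated by viral nucleic acid sensors and induces interferon beta, was measured at 413.3, 523.2, 411.7 and 400.6 in GFP and at 296.4, 378.4, 269.8 and 302.6 in sXBP1 samples. These deposited values do not overlap, but the normalized ones do. Irf3 fell by 0.36 ± 0.10 (limma adjusted p = 0.0307) on 1 of 4 probe sets, the brightest, whose name ends in _x_at, the array maker's mark for probes that may also match other transcripts. The mean of its probe sets changed by -0.14 (adjusted p = 0.463), and the call was lost without sXBP1 arrays 3 and 4 (0.216), without a trend (0.0561), and without GFP replicate 1, 2 or 3 or sXBP1 replicate 1, 3 or 4 (adjusted p = 0.0695, 0.0921, 0.0631, 0.0662, 0.0758 and 0.0806).

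Members of the factor complex that binds the ISRE did not pass. Stat2 gave 135.6, 144.9, 152.7 and 126.7 in GFP and 164.2, 126.8, 119.3 and 222.8 in sXBP1 samples. The deposited sXBP1 values spread on both sides of the GFP values. After normalization the groups overlapped, with all sXBP1 values above the GFP mean. The change was 0.27 ± 0.15 (limma adjusted p = 0.250, 95% interval -0.07 to 0.61). Irf9, the DNA-binding partner, was at 117.6, 149.0, 106.9 and 147.1 in GFP and at 99.5, 79.8, 82.9 and 122.7 in sXBP1 samples. Its groups overlapped, with a change of -0.25 ± 0.13 (limma adjusted p = 0.224, 95% interval -0.54 to 0.05). Irf7, which amplifies type I interferon production, and Irf2, which competes with Irf1, changed by -0.01 and 0.09 (limma adjusted p = 0.983 and 0.668).

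Of 12 antiviral effectors and RNA sensors measured, 2 rose, 1 fell and 9 did not pass. Oas1a, an oligoadenylate synthetase that activates RNase L when it binds double-stranded RNA, and Samhd1, an enzyme that depletes deoxynucleotides, rose, whereas Ifit3, a member of the IFIT family that inhibits viral RNA translation, fell. Oas1a signals were 77.7, 124.8, 121.9 and 90.1 in GFP and 274.7, 229.7, 397.9 and 371.0 in sXBP1 samples. Every sXBP1 value was above every GFP value, but the probe set was called present on 0 of 4 GFP arrays and on 2 of 4 sXBP1 arrays, the arrays 3 and 4. Oas1a rose by 1.60 ± 0.18 on the log2 scale (limma adjusted p = 0.000143, 95% interval 1.19 to 2.01), with 1.28 to 1.74 over the alternatives. The change of 1.60 is a ratio of 3.03-fold and carries the same sampling error. With no GFP array called present, the GFP level is an upper limit. However, sXBP1 arrays 1 and 2 were not called present either, so the ratio is not a lower bound. Oas1a lies in a cluster of closely related genes, so the signal of this probe set may include relatives.

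Ifit3 gave signals of 264.3, 381.1, 260.4 and 290.6 in GFP and of 119.6, 139.1, 143.4 and 170.2 in sXBP1 samples. GFP array 2 was the highest and sXBP1 array 1 the lowest, and the groups were well apart. Ifit3 fell by 0.84 ± 0.11 (limma adjusted p = 0.000412), and its alternatives ranged from -0.98 to -0.69. A near-identical copy, Ifit3b, may share these probes. The relatives Ifit1 and Ifit2 changed by -0.34 ± 0.22 and -0.26 ± 0.13 and did not pass (limma adjusted p = 0.332 and 0.181). Samhd1 was at 440.7, 506.1, 444.2 and 484.5 in GFP and at 536.0, 524.9, 730.4 and 667.2 in sXBP1 samples, with arrays 3 and 4 the highest. Samhd1 rose by 0.45 ± 0.10 (limma adjusted p = 0.00845), on 1 of 4 probe sets, and the mean of its probe sets did not pass (0.37, adjusted p = 0.198).

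The other 7 effectors and sensors changed by -0.35 to 0.23 and did not pass. Eif2ak2, the RNA-activated kinase PKR, was present on all arrays and changed by -0.14 ± 0.10 (limma adjusted p = 0.387). Oas2, Oasl1, Ifi35 and the RNA sensor Ifih1 were called present on no array, and Rsad2, the antiviral enzyme viperin, on 1. For genes called absent the intervals describe the signal and do not bound the transcripts; Ifi35 was called absent at signals of 222.7 to 294.5.

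Of 7 GTPase genes measured, 0 rose and 2 fell, Gbp2 and Iigp1. They belong to the GBP and IRG families, which attack the vacuoles of intracellular pathogens, as do Gbp3, Igtp and Irgm1, while Mx1 and Mx2 belong to the Mx family, which blocks viral replication. Gbp2 had signals of 394.5, 482.0, 427.1 and 425.3 in GFP and of 247.8, 239.0, 199.4 and 224.6 in sXBP1 samples. All sXBP1 values lay far below the GFP values, and Gbp2 fell by 0.76 ± 0.08 (limma adjusted p = 8.02e-05). Its other probe set fell by 1.07 ± 0.10 (limma adjusted p = 3.11e-05). Iigp1 gave 466.4, 649.2, 477.8 and 506.7 in GFP and 264.4, 283.4, 318.2 and 294.4 in sXBP1 samples, again without overlap. Iigp1 fell by 0.70 ± 0.10 (limma adjusted p = 0.000437), and its other probe set fell by 0.49 ± 0.14 (limma adjusted p = 0.0253).

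The other GTPase genes did not pass. Gbp3 changed by -0.38 ± 0.13 with groups that did not overlap (limma adjusted p = 0.0646), and it passed under 6 of 17 alternatives (-0.49 to -0.24 over all of them). Those 6 were values as deposited (adjusted p = 0.0472), the mean of all probe sets (0.0389), no trend (0.0232), the filter on dim probe sets (0.0233), a pseudocount of 64 (0.0425) and leaving out sXBP1 replicate 2 (0.0494). Igtp changed by 0.03 ± 0.14 and Irgm1, a regulator of the other IRG proteins, by 0.40 ± 0.16 (limma adjusted p = 0.909 and 0.101; 0.0469 for Irgm1 with the filter on dim probe sets). Mx1 was called present on no array, and for Mx2, with signals of 6.40 to 11.2, no calls were listed.

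**Figure D2:**
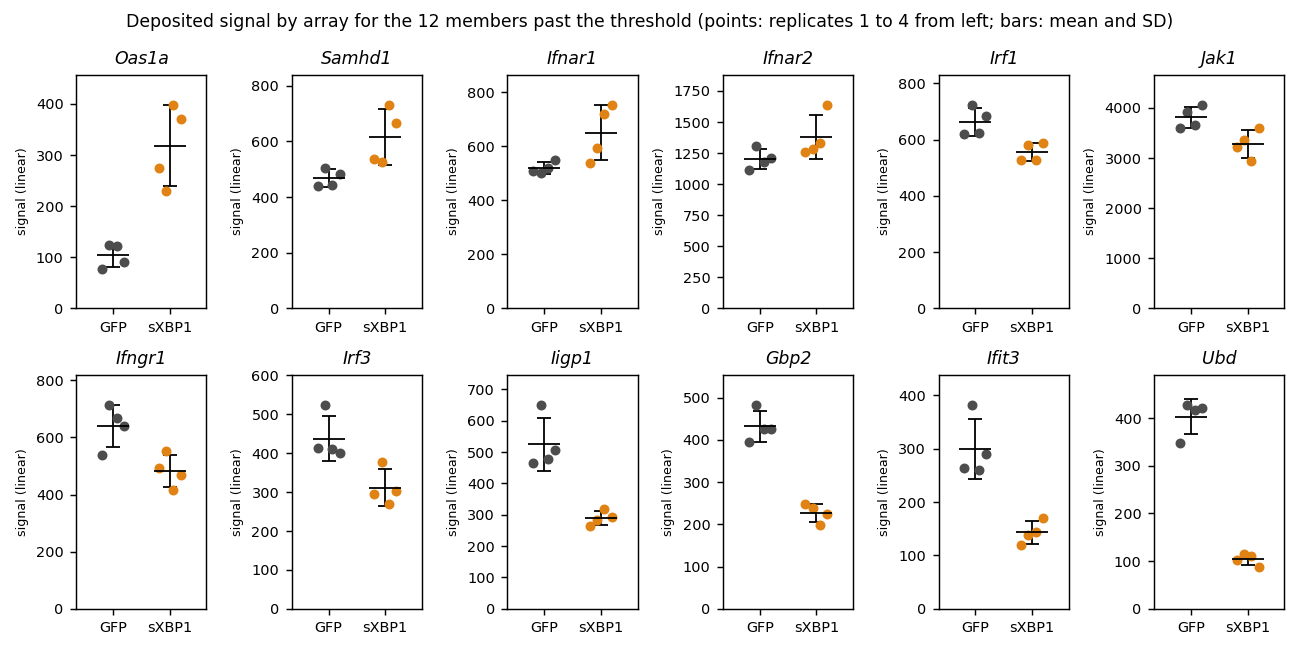
Deposited linear signal (vertical axis, from 0) on each array for the 12 members past the threshold, ordered by log2 change; points are replicates 1 to 4 from left, and bars give the mean and SD of 4 arrays. Ubd signals are 348.1 to 426.9 in GFP and 87.9 to 115.1 in sXBP1 samples, and the groups of Ifnar1, Ifnar2 and Ifngr1 overlap in deposited signal.

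Ubd, which encodes the ubiquitin-like protein FAT10 that marks proteins for the proteasome, fell the most of all members. Its signals were 348.1, 426.9, 417.1 and 421.3 in GFP and 102.1, 115.1, 110.6 and 87.9 in sXBP1 samples, with means of 403.3 ± 37.1 and 103.9 ± 12.0 (SD, n = 4). The highest sXBP1 value was below the lowest GFP value, and all 8 arrays were called present. Ubd fell by 1.67 ± 0.12 on the log2 scale (limma adjusted p = 7.37e-06), with -1.81 to -1.37 over the alternatives. Ubd is known to respond to tumour necrosis factor as well as to interferon gamma.

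The other measured genes of this class did not pass. Trim25, a ubiquitin ligase that activates RNA sensing, was at 1590.9, 1699.0, 1593.9 and 1630.3 in GFP and at 1475.3, 1331.1, 1403.6 and 1611.4 in sXBP1 samples. Deposited values overlapped through sXBP1 array 4, while the normalized groups did not overlap. The change was -0.13 ± 0.05 (limma adjusted p = 0.0937). Another probe set of Trim25 passed at -0.27 (limma adjusted p = 0.00138) and the third changed by 0.03. The one that passed was nearly as bright. Its mean log2 signal was 10.69 in GFP and 10.43 in sXBP1 samples, against 10.66 and 10.54 for the brightest. Usp18, which removes ISG15 and blocks type I receptor signalling, changed by -0.27 ± 0.18 (limma adjusted p = 0.345).

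Membrane restriction factors did not pass in any case. Ifitm2, which hinders entry of viruses from endosomes, was at 6253.9, 7029.5, 6785.6 and 6794.2 in GFP and at 6494.1, 6857.4, 6030.7 and 6512.3 in sXBP1 samples. The ranges overlapped almost wholly, with a change of -0.04 ± 0.05 (limma adjusted p = 0.665, 95% interval -0.14 to 0.07). Ifitm3 changed by 0.20 ± 0.08 (limma adjusted p = 0.103; 0.0262 with median centring) and Bst2, or tetherin, which holds budding virions at the cell surface, by -0.11 ± 0.12 (limma adjusted p = 0.594). Ifitm1 was called present on 2 GFP arrays and 1 sXBP1 array.

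Genes for MHC class I presentation were present on all 8 arrays, and 0 of 7 passed. H2-K1, a classical heavy chain, gave 10653.2, 10632.1, 10349.9 and 11298.1 in GFP and 11507.4, 11048.1, 11281.2 and 11503.5 in sXBP1 samples. The change was 0.06 ± 0.05 (limma adjusted p = 0.450, 95% interval -0.05 to 0.17). B2m, the invariant light chain, gave 9457.9, 9901.5, 9728.4 and 10087.3 in GFP and 9787.5, 10176.0, 8899.6 and 10229.6 in sXBP1 samples. Its ranges overlapped, and the change was 0.02 ± 0.05 (limma adjusted p = 0.816, 95% interval -0.08 to 0.12). These intervals hold for 1 probe set and 1 scaling each: with median centring B2m changed by 0.14 (limma adjusted p = 0.0745), and its other probe set changed by -0.06 with an interval of -0.20 to 0.08. Bright probe sets may also respond less than in proportion.

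Heavy chain results varied with the probe set. H2-D1 changed by 0.08 ± 0.04 on its brightest probe set (limma adjusted p = 0.211), while 2 of its 9 probe sets passed at 0.17 and 0.28 and 7 did not. For H2-K1, 1 of 4 probe sets passed at 0.14. Both representative probe sets are of the _x_at kind, and H2-K1 and H2-D1 are so alike that their transcripts cannot be fully separated here. With median centring H2-K1 and H2-D1 passed at 0.22 and 0.25 (limma adjusted p = 0.0223 and 0.0166). The peptide transporter genes Tap1 and Tap2 changed by 0.28 ± 0.11 and 0.12 ± 0.08, the loading factor Tapbp by -0.03 ± 0.04 and the trimming peptidase Erap1 by 0.05 ± 0.13 (limma adjusted p = 0.0946, 0.331, 0.608 and 0.840). Without sXBP1 replicate 2 Tap1 passed (0.36, adjusted p = 0.0217).

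**Figure D3:**
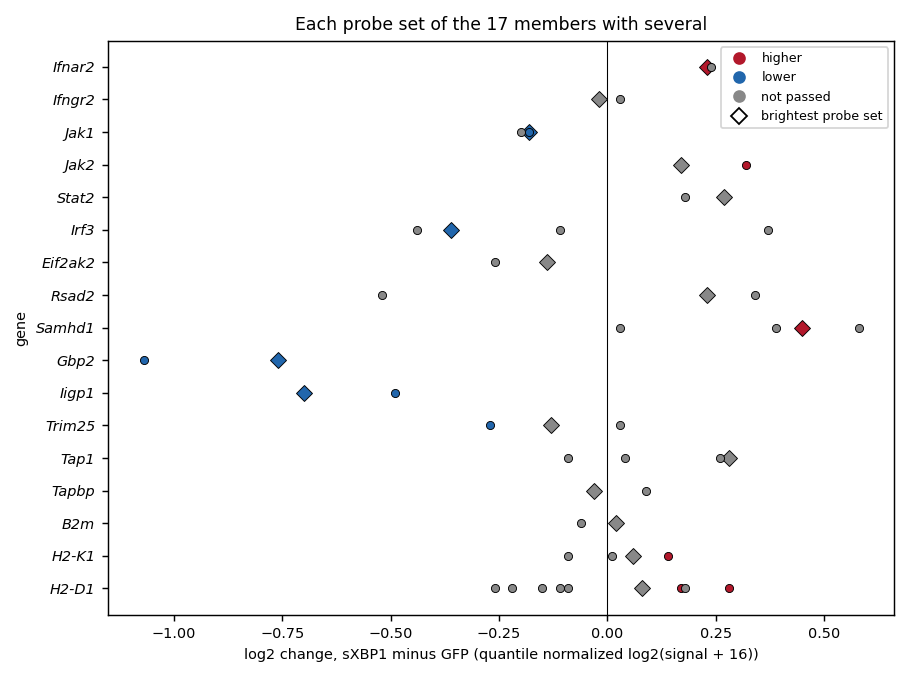
Log2 change (horizontal axis, sXBP1 minus GFP, quantile normalized log2(signal + 16)) of every probe set of the 17 members with more than 1; diamonds are the brightest probe sets, and red, blue and grey mark higher, lower and not passed. All probe sets shared the call for 9 of the 17, and 0 had calls in opposite directions.

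The 33 members that did not pass had estimates between -0.38 and 0.40. Their 95% intervals all lay within a log2 change of 1 in either direction, although 6 of these genes were detected on no array or had no calls. The authors' deposited table listed 44 of the 45 members, and the 12 that passed all had the same direction there. Its folds come from the same arrays and signals, so the shared direction is no independent support. The authors' deposited table gave folds of 3.88 downward for Ubd, 2.09 downward for Ifit3 and 3.07 upward for Oas1a.

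The sXBP1 arrays differed among themselves for the members that passed. Mean distance from the GFP mean was larger in size on arrays 3 and 4 than on arrays 1 and 2 for 10 of the 12, with Ifit3 and Iigp1 the exceptions. The gap was small for Irf1 (-0.14 on arrays 1 and 2, -0.18 on arrays 3 and 4) and Jak1 (-0.14 and -0.22). The same share was not computed over all genes that passed, so the count cannot be read as particular to the members. Oas1a stood 1.33 above the GFP mean on arrays 1 and 2 and 1.87 above it on arrays 3 and 4, in log2 units. Ifngr1 stood at -0.17 and -0.43, and Samhd1 at 0.29 and 0.62. Ubd moved less between these arrays, at -1.61 and -1.74. Without arrays 3 and 4, a setting chosen after seeing the data, 3 members rose and 4 fell, and the calls of Ifnar1, Ifngr1, Jak1, Irf1 and Irf3 were lost. The summed macrophage and leukocyte markers were also highest on arrays 3 and 4; their part in these results was not tested.

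**Figure D4:**
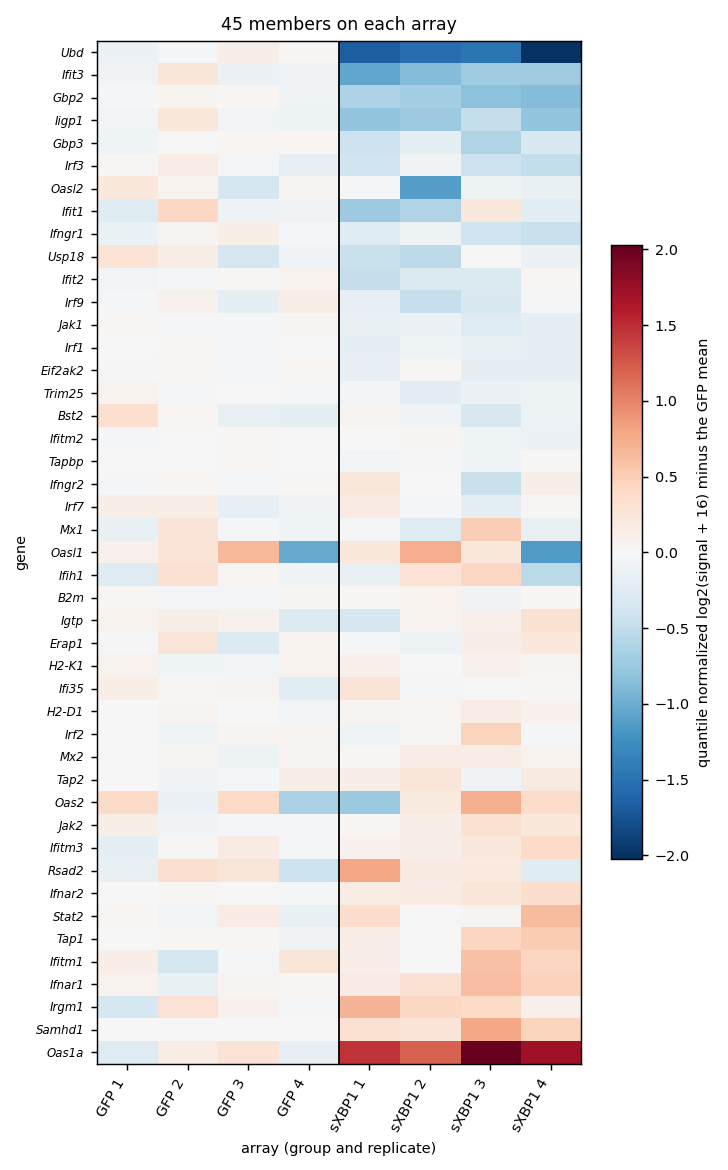
Distance of each of the 45 genes from its GFP mean (colour, quantile normalized log2(signal + 16)) on the 8 arrays (horizontal axis), ordered by log2 change (vertical axis). Ubd, Ifit3, Gbp2 and Iigp1 are blue and Oas1a red on all 4 sXBP1 arrays, while most other genes lie closer to their GFP mean.

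Further genes of the pathway were read from 5 companion lists. For comparison, 27.3% of all genes passed, with 12.9% rising and 14.4% falling. Of 38 other interferon-induced genes, 5 rose, 10 fell and 23 did not pass, with a median log2 change of -0.06. The share that passed was 39.5%, above that of all genes. Those with the smallest p were Ifi30, a thiol reductase of antigen processing, which fell by 0.69 ± 0.06 (limma adjusted p = 1.55e-05), and Isg20, an exonuclease, which rose by 0.72 ± 0.07 (limma adjusted p = 4.14e-05). Here too rises and falls occurred side by side.

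Of 12 genes of the immunoproteasome, peptide loading and further class I molecules, 6 rose and 0 fell, with a median of 0.24. Among all genes 12.9% rose and 14.4% fell, so the share of rises was larger in this list. Whether the list differs from all genes was not tested. H2-M3, a nonclassical class I heavy chain that presents formylated peptides, averaged 1066 ± 82.9 on GFP arrays against 2262 ± 281 with sXBP1 (signal, SD, n = 4) and rose by 1.12 ± 0.07 (limma adjusted p = 4.39e-06). Pdia3, a disulfide isomerase of the loading complex, rose by 0.73 ± 0.06 (limma adjusted p = 1.18e-05). The other 4 that rose were Psmb8, Psmb10, Calr and Tapbpl. Pdia3 and Calr are also general folding factors of the endoplasmic reticulum.

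Of 8 MHC class II genes, 0 rose and 0 fell in limma, with 1 at an unadjusted p under 0.05, and 5 were present on no array or had no calls listed. H2-Ab1 and Cd74, with the smallest p, did not pass (limma adjusted p = 0.0573 and 0.256). H2-Ab1 was not detected on any array, so its signals are near background.

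Interferon genes and their inducers gave 2 rises and 2 falls among 15 measured (26.7% passed, against 27.3% of all genes). Of the 15, 8 were present on no array or had no calls listed, among them Ifnb1 and Ifng. Myd88, an adaptor of Toll-like receptors, rose by 0.45 ± 0.09 (limma adjusted p = 0.00431), although not with values as deposited (adjusted p = 0.0508). The falls were Irf8, called present on no array, and Ifna2, at signals of 5.0 to 22.6 with no calls listed, so neither was a detected gene and no fold is given. The call of Irf8 was lost with median centring (limma adjusted p = 0.0629), with the mean of its probe sets (0.183), with the replicate number as a block (0.0562) and without GFP replicate 1 or 3 or sXBP1 replicate 1, 2 or 3 (0.0579 to 0.0827).

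Of 15 feedback inhibitors and further kinases, 2 rose and 1 fell. Socs3, an inhibitor of cytokine receptor signalling, averaged 1111 ± 139 on GFP arrays against 2478 ± 628 with sXBP1 (signal, SD, n = 4) and rose by 1.17 ± 0.14 (limma adjusted p = 0.000174). Ptpn11, the phosphatase SHP2, fell by 0.32 ± 0.05 (limma adjusted p = 0.00100), but its call was lost with the mean of its probe sets (-0.26, adjusted p = 0.0863). Tyk2, the Janus kinase of the type I receptor, was the other gene that rose, by 0.52 ± 0.12 (limma adjusted p = 0.00921). Its probe set was called present on 1 of 4 GFP arrays and on 4 of 4 sXBP1 arrays.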

How the data were processed

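RNA of 4 sXBP1 and 4 GFP samples, grouped and numbered by their titles, was hybridised to 1 array each. The signal intensity values per probe set were made by the authors in MAS5 (per the submitters' processing notes), whose version and scaling target were not given in the sources used here. Present or absent calls, a signed fold and a score per probe set came from the authors' deposited comparison table, which lists 18394 probe sets with the same signals. Symbols came from the platform annotation: of 22626 probe sets tested, after removing 64 controls, 20380 had 1 symbol, 691 several and 1555 none. For all 45 measured members the Entrez identifier was found in RefSeq of GRCm38.p6 with the same symbol. No genome was used for the probes.

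Signals were transformed as log2(signal + 16), quantile normalized and compared with limma 3.58.1 in R 4.3.3 (intensity trend, two-sided tests), and p-values were adjusted by the Benjamini-Hochberg method across all 22626 probe sets. Changes are sXBP1 minus GFP, ± SE, on that scale, which understates changes of dim genes. Each gene was read from its brightest probe set with 1 symbol. Where a gene that passed was present on no array of its dim group, the ratio given sets the bright group's mean against a floored value. For each dim array this is the gene's value or, if greater, the smallest value of any probe set present throughout the dim group. It is not a lower bound where arrays of the bright group also lack a present call. The fit was checked on simulated data with known changes. The number of arrays limits the precision.

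Signals per sample are given for members that passed and for the brightest member of each role group, Stat2, Irf9, H2-K1 and B2m; the 2 genes with the smallest p are named from each companion list, and others there were named after their values were seen. The members, lists and rules were chosen with earlier results of these data known. Same-numbered samples of the 2 groups were correlated above 0.1 in 2 of 4 pairs. With so few pairs this does not settle whether the numbers pair the samples, and the main fit did not pair them. Figures were drawn with matplotlib 3.10.9.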

Additional observations from a re-analysis of the deposited data

Results flagged for a closer look

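In 90 groups of 4 arrays (45 members in 2 groups), 8 had 1 array far from the other 3, by a gap over range above Dixon's 95% critical value; chance flags about 1 in 20 groups. Values below are normalized log2 signals. In GFP, replicate 2 was the highest for Ifit3 (8.47 against 8.10 to 8.16, ratio 0.858) and Iigp1 (9.23 against 8.92 to 8.96, ratio 0.873) and the lowest for Ifnar1 (8.86 against 9.05 to 9.09, ratio 0.841). GFP replicate 4 was the lowest for Igtp (7.74 against 8.10 to 8.13, ratio 0.917) and Tap1 (8.64 against 8.73 to 8.75, ratio 0.831). GFP replicate 3 was the highest for Tapbp (11.43 against 11.38 to 11.39, ratio 0.864). In sXBP1, replicate 2 was the lowest for Oasl2 (4.96 against 5.91 to 6.04, ratio 0.883) and the highest for Eif2ak2 (7.31 against 7.09 to 7.12, ratio 0.850). Without GFP replicate 2, Ifit3, Iigp1 and Ifnar1 still passed the test.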

How the results depend on the processing

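Rises numbered 4 with the main setting, 2 with values as deposited and 8 with median centring; leaving out 1 array gave 4 to 5. Falls numbered 8, and 5 with median centring or without a trend; leaving out 1 array gave 5 to 9, and leaving out sXBP1 arrays 3 and 4, chosen after seeing the data, gave 4. The replicate block gave 4 rises and 7 falls, losing Irf1, and 5083 probe sets called in place of 5543. With the block H2-Ab1 passed and Irf8 did not (limma adjusted p = 0.0175 and 0.0562). Whether the numbers pair the samples is not settled. The same-numbered pairs correlated at 0.127, 0.026, -0.082 and 0.105, and pairs with unlike numbers at -0.149 to 0.091. Leaving out 1 array gave 4595 to 5379 called probe sets. The mean of all probe sets gives no count of probe sets. The median change of all probe sets was -0.02, -0.07 as deposited and 0.07 with median centring, and 46.9%, 33.4% and 60.7% of calls were rises. The members' median was -0.07 as deposited, 0.08 with median centring and -0.03 to 0.04 otherwise. No member reversed direction past the threshold under these alternatives. Why calls were lost was not tested. Probe sets present on no array limit 6 of the 45 members.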

Other observations

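Probe sets that name a member beside another gene were left out of the comparison and are given as values only. The probe set annotated to Isg15 and Gm9706 had signals of 242.8, 244.5, 222.7 and 177.1 in GFP and of 280.6, 233.2, 247.7 and 346.6 in sXBP1 samples, which overlap, and changed by 0.43 (limma adjusted p = 0.0358). The brighter of 2 probe sets annotated to H2-T-ps and H2-T23, a nonclassical class I heavy chain, had signals of 1276.8, 1740.6, 1574.3 and 1600.8 in GFP and of 978.9, 982.3, 928.7 and 975.6 in sXBP1 samples. It fell by 0.61 (limma adjusted p = 8.10e-05) without overlap between groups. The probe set annotated to H2-Q5 and H2-K1 fell by 0.48 (limma adjusted p = 0.0121), whereas the one annotated to H2-K1 and H2-D1 changed by -0.12 (limma adjusted p = 0.183). H2-M3 rose by 1.12, so the nonclassical and shared class I probe sets did not share a direction.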
